A study of Mus musculus with 9 samples.

Results

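The 51 genes described here belong to the TGF-beta, BMP and activin pathways. They are the TGF-beta ligands with the induced matrix gene Tgfbi, the latency proteins, the receptors and co-receptors, the SMADs with Skil, the BMP, GDF and activin ligands, the secreted antagonists and the ID genes. They were chosen by name and role, with no threshold on measured values but with earlier results of these data known. Shares of members set beside those of all tested genes are therefore descriptions, not tests. All 51 were found among the 52780 genes of the deposited count table. Levels were measured by RNA sequencing in C2C12, an immortal line of mouse myoblasts whose cells fuse to myotubes in low serum, at day 4 of differentiation. The 9 samples form 3 groups of 3: cells labelled WT, KD mH2A1.1 and KD mH2A1.2, the latter groups transfected repeatedly with 10 nM siRNA against one splice isoform of the histone variant macroH2A1. The study listed a scramble control siRNA and more than one siRNA per isoform, but which of them each library received is not given in the sources used here, and neither is whether the WT cells were transfected. All cells came from the same line. They were scraped off after a wash, and no step that parts myotubes from unfused cells is given in the sources used here.

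Ligands of this superfamily are secreted, and those of the TGF-beta branch are held latent in the matrix by binding proteins until they are released. Active ligands join a pair of type I and type II receptors, which phosphorylate receptor SMADs: Smad2 and Smad3 for TGF-beta, activin and myostatin, and Smad1, Smad5 and Smad9 for BMPs. These enter the nucleus with Smad4, while Smad6, Smad7 and Skil restrain the signal and secreted antagonists such as follistatin and noggin trap the ligand. In muscle, TGF-beta and myostatin are known for holding back myoblast differentiation and growth, follistatin for promoting growth, and the ID proteins, targets of BMP, for blocking the myogenic transcription factors.

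The members differed widely between the 2 knockdowns. Bmp4, a BMP ligand, fell 7.78-fold in KD mH2A1.1 against WT, and Ltbp2, a matrix relative of the latent TGF-beta binding proteins, rose 3.98-fold in KD mH2A1.2. Fst, Fstl1 and Skil passed the test on opposite sides of WT, lower in KD mH2A1.1 and higher in KD mH2A1.2. Unlike the calls of Bmp4 and Ltbp2 above, each of these was lost in at least 1 fit that left out a sample. Between the knockdowns, 35 of the 48 members that could be tested differed (72.9%, beside 22.5% of all tested genes), 29 of them lower in KD mH2A1.1, as were 10.5% of all tested genes. The summed level of all 51 members was 2244 to 2824 CPM (counts scaled to the size of each library) in the WT samples, 1790 to 2231 in KD mH2A1.1 and 3826 to 4344 in KD mH2A1.2. The KD mH2A1.2 sums lay above all others without overlap. Every KD mH2A1.1 sum lay below every WT sum, but narrowly, with the nearest at 2231 and 2244. Fstl1 alone held 419 to 663 CPM of the WT sums, 195 to 377 of KD mH2A1.1 and 1122 to 1573 of KD mH2A1.2. Without Fstl1, the sums of WT and KD mH2A1.1 overlap. In such bulk samples, fewer cells of a type and less RNA per cell cannot be told apart.

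The libraries held 36924252 to 42223108 counts each. A floor of 3 counts, used as the limit of detection, corresponds to 0.0691 to 0.0825 CPM per library. H2afy, the gene of macroH2A1, had 56.2, 62.3 and 61.0 CPM in WT, 38.8, 30.0 and 30.9 in KD mH2A1.1, and 46.8, 47.2 and 43.2 in KD mH2A1.2. Its log2 fold change was -0.85 ± 0.11 (SE) in KD mH2A1.1 (adjusted p = 0.00331) and -0.39 ± 0.11 in KD mH2A1.2 (adjusted p = 0.108), and counts per gene do not separate its isoforms. A list of 12 interferon response genes moved with the KD mH2A1.1 group. All 12 had a log2 fold change above 0 against WT. Of them, 11 passed as higher at an adjusted p below 0.05, as did 6.18% of all tested genes. Between the knockdowns all 12 passed as higher in KD mH2A1.1, as did 12.0% of all tested genes. Their summed level was 226 to 726 CPM against 73.7 to 88.4 in WT and 72.5 to 94.97 in KD mH2A1.2. KD mH2A1.2 replicate 1 stood apart from its group on the second principal component, at -53.5 against -13.1 and -6.33.

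Of the 51 members, 48 passed the filter on low counts. Bmp2, the ligand that turns C2C12 cells toward bone when added, had 0 counts in all 9 libraries, which allows a level of up to the 3-count floor of each library (counting error only). Gdf6 had at most 22 counts and Id4 at most 4 in any library, and neither was tested. The highest levels per exon length, averaged over the 9 samples, were 146 CPM per kb for Fstl1, 47.9 for Tgfb3, 27.8 for Ltbp3, 21.2 for Tgfbr2, 20.6 for Smad3, 12.1 for Inhba and 6.98 for Id1, each the highest of its role. On GRCm38, Fstl1 lies at chr16:37776873-37836514 (plus strand), Bmp4 at chr14:46383520-46390669 (minus), Ltbp2 at chr12:84783212-84876532 (minus) and Lrrc32 at chr7:98489283-98502181 (plus).

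In KD mH2A1.1 against WT, 11 of the 48 tested members passed an adjusted p of 0.05, which is 22.9% of them, and 11.1% of all tested genes did. The members that rose were Tgfb2, Tgfbr1 and Nog, and those that fell were Tgfb3, Ltbp1, Acvr2a, Skil, Bmp4, Bmp5, Fst and Fstl1. Over all genes, 6.18% rose and 4.93% fell. The median log2 fold change was -0.35 over the tested members and -0.01 over all tested genes. The ranges of the groups did not overlap in 23 of the 48 members, and did not in 34.2% of all tested genes. Among genes of at least 1 CPM on average, 10 of 43 members passed (23.3%), beside 13.0% of all such genes. The count of 11 members became 3 without WT replicate 2, 3 without WT replicate 3, 4 without KD mH2A1.1 replicate 1, 3 without KD mH2A1.1 replicate 3 and 5 without KD mH2A1.2 replicate 2. In these fits the share of all tested genes that passed was 2.99%, 4.02%, 3.44%, 3.33% and 7.74%, in the same order. Acvr2a and Bmp4 passed in each of the 9 fits that left out a sample, and the other 9 calls were lost in at least 1 of them.

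In KD mH2A1.2 against WT, 9 members passed, 18.8% of those tested, and 2.35% of all tested genes did. Ltbp2, Ltbp3, Lrrc32, Tgfbr2, Acvr1, Skil, Fst and Fstl1 rose and Mstn fell, while 1.37% of all genes rose and 0.982% fell. The median log2 fold change was 0.29 over the tested members and 0 over all tested genes. The groups did not overlap in 19 members, against 22.5% of all tested genes. At 1 CPM or more on average, 8 of 43 members passed (18.6%), beside 2.96% of all such genes. Same-numbered samples of these groups deviated together, and with the replicate number as a block 14 members passed, 12 higher and 2 lower, against 5.14% of all genes. The block added Acvr1b (adjusted p = 0.024), Bmp4 (adjusted p = 0.0253), Inhbb (adjusted p = 0.0233), Tgfb2 (adjusted p = 0.0327) and, at the threshold, Inhba (adjusted p = 0.05 after rounding). Without a block, the count of 9 became 2 without WT replicate 1, 3 without WT replicate 3, 3 without KD mH2A1.1 replicate 3, 2 without KD mH2A1.2 replicate 1 and 2 without KD mH2A1.2 replicate 2. In these fits the share of all tested genes that passed was 0.367%, 0.492%, 1.15%, 0.452% and 0.401%, in the same order. Ltbp2 and Lrrc32 passed in all 9 such fits, and the other 7 calls were lost in at least 1.

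Between KD mH2A1.1 and KD mH2A1.2, 35 members passed, 72.9% of those tested, and 22.5% of all tested genes did. Lower in KD mH2A1.1 were 29 members and higher were 6, while of all genes 10.5% were lower and 12.0% higher. The median log2 fold change was -0.67 over the tested members, against -0.01 over all tested genes. Non-overlapping ranges were found in 39 of the 48 members and in 39.7% of all tested genes. Among genes of at least 1 CPM on average, 33 of 43 members passed (76.7%), beside 26.6% of all such genes. The count of 35 became 22 without KD mH2A1.2 replicate 2 and 32 without KD mH2A1.2 replicate 1, the sample that stood apart, and 20 calls were kept in every fit that left out a sample: Tgfb3, Ltbp1, Ltbp2, Ltbp3, Lrrc32, Eng, Acvr2a, Smad3, Smad6, Smad7, Skil, Bmp4, Gdf5, Mstn, Inhba, Inhbb, Fst, Fstl1, Fstl3 and Nog. The other 15 calls were lost in at least 1 such fit. The comparisons of each knockdown with WT share the WT samples, so they are not independent of each other. At an adjusted p below 0.01 and a log2 change of 0.8 or more in size, 1 member passed in KD mH2A1.1 (Bmp4; 1.8% of all genes), 2 in KD mH2A1.2 (Ltbp2 and Lrrc32; 0.179%) and 15 between the knockdowns (6.39%).

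**Figure D1:**
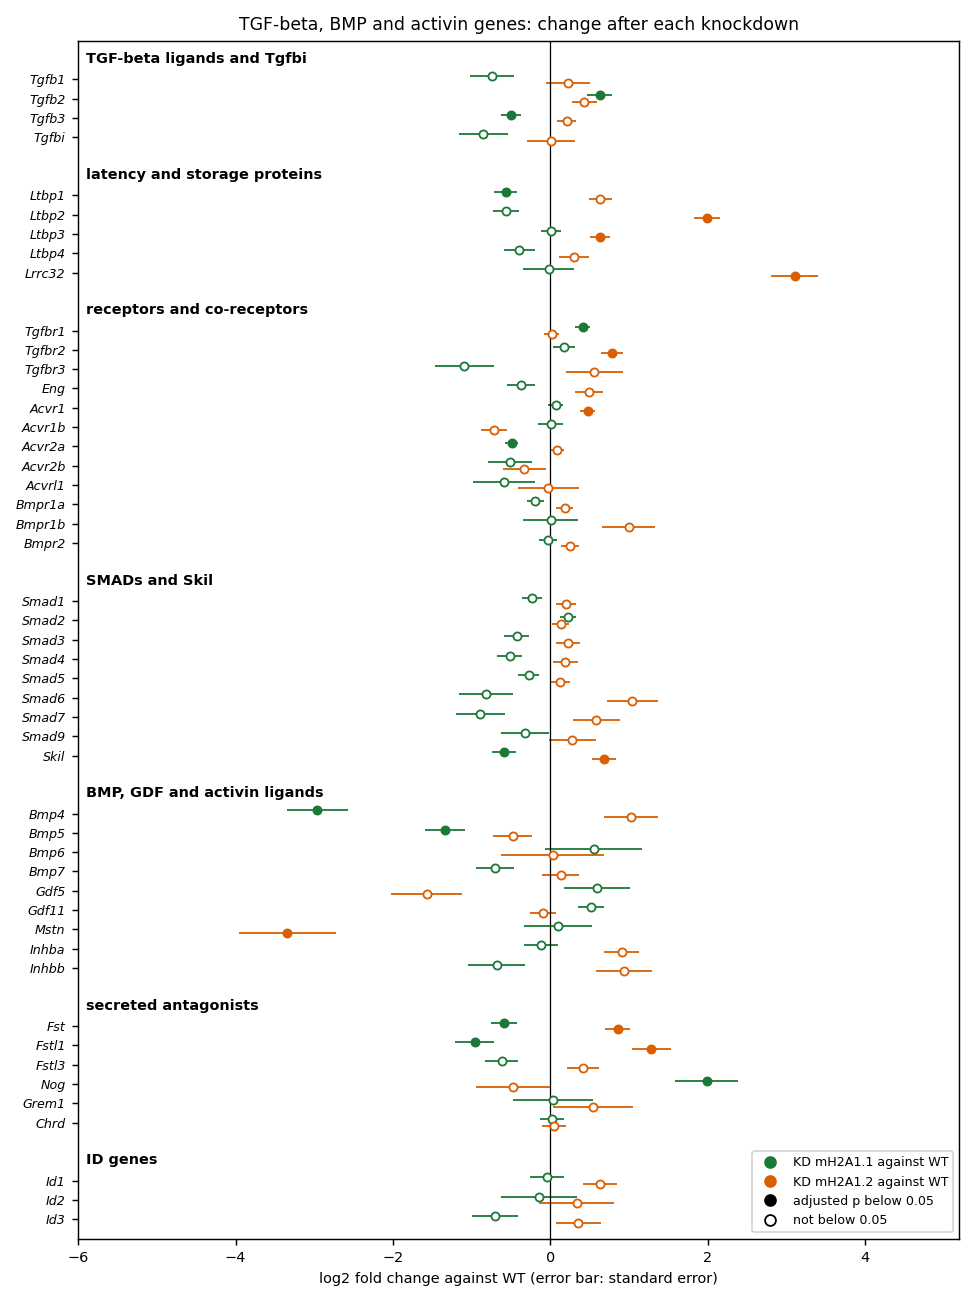
Log2 fold change of each of the 48 tested members in KD mH2A1.1 (green) and KD mH2A1.2 (orange) against WT, grouped by role, with the standard error as a bar and filled points where the adjusted p was below 0.05. Right of 0 lie 15 green and 40 orange points, with Bmp4 farthest left for KD mH2A1.1 and Lrrc32 farthest right for KD mH2A1.2.

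Among the TGF-beta ligands, Tgfb2 was higher and Tgfb3 lower in KD mH2A1.1 than in WT. Tgfb2 had 54.7, 50.4 and 37.4 CPM in WT, 75.6, 76.7 and 67.7 in KD mH2A1.1 and 73.9, 66.9 and 51.6 in KD mH2A1.2. All KD mH2A1.1 samples lay above WT, a log2 fold change of 0.63 ± 0.16 (adjusted p = 0.0349). KD mH2A1.2 overlapped WT but was also higher on average, at 0.43 ± 0.16 (adjusted p = 0.214, or 0.0327 in the blocked fit). Between the knockdowns the Tgfb2 difference did not pass (0.19 ± 0.16, adjusted p = 0.421). Tgfb3, the ligand with the highest level per length, had 139, 172 and 198 CPM in WT, 113, 131 and 116 in KD mH2A1.1 and 196, 198 and 193 in KD mH2A1.2. Its KD mH2A1.1 samples were below every WT sample (log2 fold change -0.50 ± 0.13, adjusted p = 0.0339) and below KD mH2A1.2 (-0.70 ± 0.13, adjusted p = 0.00434). The ratio of Tgfb2 to Tgfb3 within a sample was 0.393, 0.293 and 0.189 in WT and 0.667, 0.584 and 0.582 in KD mH2A1.1. Tgfb1 had 27.0, 59.6 and 37.5 CPM in WT, 24.4, 26.7 and 23.2 in KD mH2A1.1 and 32.1, 56.6 and 56.1 in KD mH2A1.2. WT spread widely for this gene. In the fit without a replicate block, only the difference between the knockdowns passed (log2 fold change -0.96 ± 0.28, adjusted p = 0.033). Tgfbi, a matrix protein named for its induction by TGF-beta, had at most 148 counts in a library. It passed in no comparison in the fit without a replicate block.

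All 5 proteins of TGF-beta latency and storage differed between the knockdowns, and all were higher in KD mH2A1.2. Ltbp2, a microfibril protein related to the others that does not itself bind latent TGF-beta, had 15.9, 22.1 and 20.3 CPM in WT, 10.2, 15.2 and 14.0 in KD mH2A1.1 and 82.0, 70.6 and 79.2 in KD mH2A1.2. The 3 groups did not overlap, and Ltbp2 rose by 1.99 ± 0.17 on the log2 scale in KD mH2A1.2 (adjusted p = 0.00426), while the value for KD mH2A1.1 was -0.56 ± 0.16 (adjusted p = 0.0532). Between the knockdowns its log2 fold change was -2.56 ± 0.17 (adjusted p = 7.78e-05). Lrrc32, which anchors latent TGF-beta at the cell surface, had 0.268, 0.532 and 0.567 CPM in WT, 0.321, 0.543 and 0.483 in KD mH2A1.1 and 3.74, 3.68 and 4.45 in KD mH2A1.2. It rose 8.62-fold in KD mH2A1.2 from a low level (log2 fold change 3.11 ± 0.30, adjusted p = 0.00481), and the KD mH2A1.1 samples overlapped WT. Ltbp3, a carrier of latent TGF-beta with the highest level per length here, had 180.5, 207 and 249 CPM in WT, 197, 207 and 237 in KD mH2A1.1 and 351, 304 and 332 in KD mH2A1.2. It rose in KD mH2A1.2 (log2 fold change 0.63 ± 0.13, adjusted p = 0.0389), with KD mH2A1.1 inside the WT range on average and overlapping it. Ltbp1, which tethers the latent complex to the matrix, had 121, 117 and 116 CPM in WT, 68.3, 85.4 and 84.5 in KD mH2A1.1 and 226, 172 and 149 in KD mH2A1.2. No sample of either knockdown fell in the WT range, and the log2 fold changes were -0.57 ± 0.15 for KD mH2A1.1 (adjusted p = 0.0378) and 0.63 ± 0.15 for KD mH2A1.2, where the test missed the threshold (adjusted p = 0.0582). Ltbp4, another carrier, had 95.2, 85.9 and 70.3 CPM in WT, 53.8, 77.7 and 59.9 in KD mH2A1.1 and 128, 104 and 78.5 in KD mH2A1.2. Both knockdowns overlapped WT, and the knockdowns differed from each other (log2 fold change -0.70 ± 0.19, adjusted p = 0.0275).

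**Figure D2:**
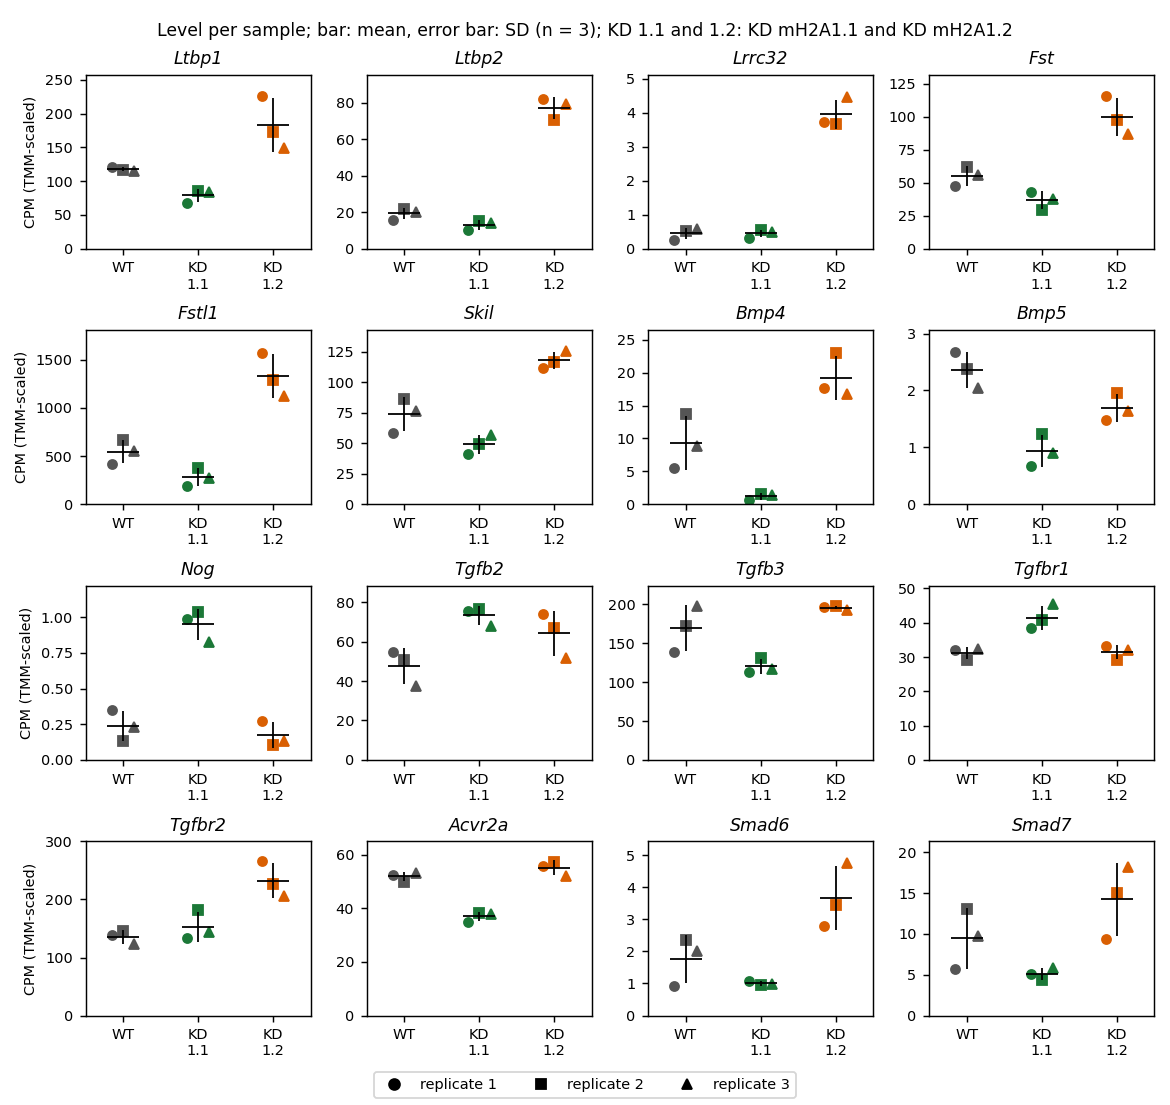
Level of 16 members in every sample, in TMM-scaled CPM from 0, with grey for WT, green for KD mH2A1.1 and orange for KD mH2A1.2, marker shape for the replicate, and the mean with its SD (n = 3) in black. Fstl1, Ltbp2, Fst, Skil and Bmp4 step down from WT in KD mH2A1.1 and up in KD mH2A1.2 in every sample, and Nog stands high in KD mH2A1.1.

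The receptors of TGF-beta itself did not move as a unit. Tgfbr1, the type I receptor, had 32.0, 29.2 and 32.4 CPM in WT, 38.5, 40.7 and 45.4 in KD mH2A1.1 and 33.1, 29.2 and 32.2 in KD mH2A1.2. It rose in KD mH2A1.1 alone of the comparisons with WT (log2 fold change 0.41 ± 0.10, adjusted p = 0.0277) and was higher there than in KD mH2A1.2 (0.40 ± 0.10, adjusted p = 0.0178). Tgfbr2, the type II receptor and the receptor with the highest level per length, had 138, 146 and 122 CPM in WT, 133, 181 and 144 in KD mH2A1.1 and 266, 227 and 206 in KD mH2A1.2. All KD mH2A1.2 samples lay above the other 6, a log2 fold change of 0.78 ± 0.14 against WT (adjusted p = 0.0253). Tgfbr3, the co-receptor betaglycan, had 8.96, 20.4 and 15.8 CPM in WT, 5.97, 6.71 and 8.47 in KD mH2A1.1 and 11.1, 23.9 and 31.5 in KD mH2A1.2. All KD mH2A1.1 samples were below WT, but without a replicate block only the difference between the knockdowns passed (log2 fold change -1.65 ± 0.38, adjusted p = 0.0125). Eng, the co-receptor endoglin, had 2.01, 2.48 and 2.14 CPM in WT, 1.73, 1.73 and 1.66 in KD mH2A1.1 and 3.08, 3.44 and 2.76 in KD mH2A1.2. Its groups did not overlap, and the knockdowns differed by -0.86 ± 0.18 on the log2 scale (adjusted p = 0.00858).

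Of the activin and BMP receptors, Acvr2a fell in KD mH2A1.1 and Acvr1 rose in KD mH2A1.2. Acvr2a, a type II receptor of activin and myostatin, had 52.5, 50.0 and 53.1 CPM in WT, 35.0, 38.2 and 37.7 in KD mH2A1.1 and 55.8, 57.4 and 51.9 in KD mH2A1.2. The KD mH2A1.1 samples lay well under the others, with a log2 fold change of -0.49 ± 0.08 against WT (adjusted p = 0.00802) and -0.57 ± 0.08 against KD mH2A1.2 (adjusted p = 0.00158). Acvr1, a type I receptor of BMPs, had 49.0, 58.4 and 48.4 CPM in WT, 55.5, 56.1 and 52.0 in KD mH2A1.1 and 75.8, 71.1 and 69.3 in KD mH2A1.2. Its rise in KD mH2A1.2 was 0.47 ± 0.10 on the log2 scale (adjusted p = 0.0357), without overlap. Acvr1b, the type I receptor of activin, went the other way, at 16.8, 15.1 and 17.2 CPM in WT, 13.1, 18.1 and 18.1 in KD mH2A1.1 and 9.24, 8.81 and 11.8 in KD mH2A1.2. The KD mH2A1.2 samples were the lowest, at -0.72 ± 0.16 against WT (adjusted p = 0.0508, or 0.024 in the blocked fit) and with a difference of 0.72 ± 0.16 between the knockdowns (adjusted p = 0.0118). Bmpr1a, a type I BMP receptor, had 100.1, 108 and 115 CPM in WT, 86.0, 99.8 and 98.2 in KD mH2A1.1 and 114, 116 and 138 in KD mH2A1.2, and differed between the knockdowns by -0.37 ± 0.11 (adjusted p = 0.0324). Acvr2b, Acvrl1, Bmpr1b and Bmpr2, the other receptors, passed in no comparison in the fit without a replicate block. Bmpr2, the type II BMP receptor, was well measured with up to 6006 counts in a library, and its log2 fold changes were -0.03 ± 0.11 in KD mH2A1.1 and 0.25 ± 0.11 in KD mH2A1.2. Acvrl1 had at most 49 counts and Bmpr1b at most 77, and their log2 fold changes between the knockdowns were -0.56 ± 0.40 (adjusted p = 0.342) and -0.99 ± 0.34 (adjusted p = 0.0594).

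Among the SMADs, the inhibitory members and Skil had larger differences between the knockdowns than the signal transducers. Smad6, which restrains BMP signals, had 0.936, 2.37 and 2.01 CPM in WT, 1.09, 0.938 and 0.990 in KD mH2A1.1 and 2.78, 3.44 and 4.75 in KD mH2A1.2. Every KD mH2A1.2 sample was above every WT sample, and the knockdowns differed by -1.86 ± 0.33 on the log2 scale (adjusted p = 0.00433). Smad7, which restrains TGF-beta and BMP signals, had 5.64, 13.1 and 9.71 CPM in WT, 5.11, 4.37 and 5.85 in KD mH2A1.1 and 9.41, 15.02 and 18.2 in KD mH2A1.2, with a difference of -1.48 ± 0.31 between the knockdowns (adjusted p = 0.00876). WT replicate 1 was low for both genes, at or near the KD mH2A1.1 level, and neither passed against WT in the fit without a replicate block. Skil, a repressor that binds SMADs and is itself a TGF-beta target, had 58.5, 85.8 and 76.5 CPM in WT, 41.1, 49.1 and 57.1 in KD mH2A1.1 and 112, 117 and 125 in KD mH2A1.2. The groups were in 3 separate ranges, with log2 fold changes of -0.58 ± 0.15 (adjusted p = 0.0378) and 0.68 ± 0.15 (adjusted p = 0.0496) against WT.

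Of the signal transducers, Smad1, Smad3 and Smad4 differed between the knockdowns, and no transducer passed against WT in the fit without a replicate block. Smad3, the SMAD with the highest level per length, had 104, 109 and 139.7 CPM in WT, 70.0, 106 and 86.8 in KD mH2A1.1 and 136, 135 and 143 in KD mH2A1.2 (between the knockdowns -0.66 ± 0.15, adjusted p = 0.0142, and for KD mH2A1.1 against WT -0.43 ± 0.15, adjusted p = 0.0949). Smad4, the partner shared by all receptor SMADs, had 58.0, 82.0 and 67.3 CPM in WT, 42.5, 52.2 and 50.4 in KD mH2A1.1 and 62.9, 87.6 and 86.1 in KD mH2A1.2 (between the knockdowns -0.71 ± 0.16, adjusted p = 0.0124, and for KD mH2A1.1 against WT -0.52 ± 0.16, adjusted p = 0.0631). KD mH2A1.1 lay under WT without overlap for Smad4, whereas Smad3 overlapped. Smad1, a BMP transducer, had 19.3, 23.5 and 20.2 CPM in WT, 16.2, 19.1 and 18.4 in KD mH2A1.1 and 21.04, 26.0 and 25.3 in KD mH2A1.2 (between the knockdowns -0.43 ± 0.13, adjusted p = 0.0336). Smad2, Smad5 and Smad9 passed in no comparison in the fit without a replicate block. Smad5 was nearest the threshold between the knockdowns (log2 fold change -0.39 ± 0.13, adjusted p = 0.0517, or 0.0055 in the blocked fit).

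Of the BMP, GDF and activin ligands, Bmp4 had the widest difference. It had 5.51, 13.7 and 8.91 CPM in WT, 0.592, 1.55 and 1.45 in KD mH2A1.1 and 17.7, 22.9 and 16.7 in KD mH2A1.2. The 3 ranges were apart, and Bmp4 fell by 2.96 on the log2 scale in KD mH2A1.1 (SE 0.39, adjusted p = 0.00331). In KD mH2A1.2 its log2 fold change was 1.03 ± 0.34 (adjusted p = 0.164, or 0.0253 in the blocked fit), and between the knockdowns it was -3.99 ± 0.40 (adjusted p = 0.000293), a 15.9-fold difference. Bmp5, another BMP ligand, had 2.67, 2.37 and 2.04 CPM in WT, 0.666, 1.23 and 0.898 in KD mH2A1.1 and 1.49, 1.96 and 1.64 in KD mH2A1.2. It fell in KD mH2A1.1 (log2 fold change -1.34 ± 0.26, adjusted p = 0.0131), and its KD mH2A1.2 samples were also under WT, at -0.48 ± 0.25 (adjusted p = 0.393). Bmp7, a BMP ligand with at most 60 counts in a library, had 1.204, 1.01 and 1.55 CPM in WT, 0.642, 0.839 and 0.829 in KD mH2A1.1 and 1.46, 1.41 and 1.26 in KD mH2A1.2. It differed between the knockdowns by -0.83 ± 0.24 (adjusted p = 0.0322). Bmp6 had at most 19 counts and passed in no comparison.

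Inhba and Inhbb, which encode the activin subunits, were highest in KD mH2A1.2. Inhba, the ligand of this role with the highest level per length, had 53.4, 81.9 and 48.4 CPM in WT, 57.3, 44.8 and 67.3 in KD mH2A1.1 and 106, 139 and 98.8 in KD mH2A1.2. The KD mH2A1.2 samples lay above the other 6, and the knockdowns differed by -1.02 ± 0.22 (adjusted p = 0.0095), while the value against WT was 0.91 ± 0.22 (adjusted p = 0.0634). Inhbb had 20.9, 39.8 and 26.0 CPM in WT, 8.86, 21.5 and 23.6 in KD mH2A1.1 and 37.9, 68.7 and 59.0 in KD mH2A1.2. It differed between the knockdowns by -1.62 ± 0.36 (adjusted p = 0.012), and KD mH2A1.2 replicate 1 overlapped WT. Against WT, its KD mH2A1.2 value was 0.93 ± 0.36 (adjusted p = 0.23, or 0.0233 in the blocked fit).

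The growth and differentiation factors Gdf5, Gdf11 and Mstn were the ligands that stood higher in KD mH2A1.1 than in KD mH2A1.2. Mstn, myostatin, the ligand that limits muscle mass, had 16, 18 and 21 counts in WT, 18, 26 and 20 in KD mH2A1.1 and 1, 0 and 4 in KD mH2A1.2. The KD mH2A1.2 samples were lower than all others and at or near the 3-count floor. The fall passed the test (adjusted p = 0.0265 against WT and 0.00401 between the knockdowns), but at these counts the size of the change is poorly known, and its log2 fold change against WT was -4.87 without KD mH2A1.2 replicate 3. Gdf5, a ligand known from joint formation, had 3.88, 3.04 and 1.65 CPM in WT, 2.44, 5.78 and 4.70 in KD mH2A1.1 and 1.49, 0.860 and 0.537 in KD mH2A1.2. Every KD mH2A1.2 sample was under WT, and the knockdowns differed by 2.16 ± 0.45 (adjusted p = 0.00836). Gdf11, a close relative of myostatin, had 32.8, 28.9 and 32.5 CPM in WT, 55.3, 41.0 and 38.9 in KD mH2A1.1 and 36.6, 25.6 and 26.4 in KD mH2A1.2. Its KD mH2A1.1 samples were above the other 6, and the knockdowns differed by 0.61 ± 0.17 (adjusted p = 0.0266).

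Among the secreted antagonists, Fst and Fstl1 fell in KD mH2A1.1 and rose in KD mH2A1.2. Fst, follistatin, which binds activins and myostatin, had 47.2, 62.3 and 56.2 CPM in WT, 43.0, 29.5 and 37.7 in KD mH2A1.1 and 116, 97.5 and 87.0 in KD mH2A1.2. Its groups did not overlap, with log2 fold changes of -0.59 ± 0.16 in KD mH2A1.1 (adjusted p = 0.0426) and 0.86 ± 0.16 in KD mH2A1.2 (adjusted p = 0.028). Fstl1, a secreted glycoprotein of the follistatin family and the member with the highest level per length, had 419, 663 and 556 CPM in WT, 195, 377 and 269 in KD mH2A1.1 and 1573, 1289 and 1122 in KD mH2A1.2. It fell by 0.96 on the log2 scale in KD mH2A1.1 (SE 0.25, adjusted p = 0.0341) and rose by 1.28 in KD mH2A1.2 (SE 0.25, adjusted p = 0.0297), a difference of -2.24 ± 0.25 between the knockdowns (adjusted p = 0.000471). Fstl3, which also binds activins and myostatin, had 33.3, 46.2 and 42.3 CPM in WT, 19.6, 31.1 and 28.8 in KD mH2A1.1 and 42.8, 51.9 and 67.8 in KD mH2A1.2. It differed between the knockdowns by -1.03 ± 0.21 (adjusted p = 0.00757) and passed against WT in neither in the fit without a replicate block.

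Nog, noggin, a trap of BMPs, moved against the rest. Its levels were low, at 0.348, 0.133 and 0.232 CPM in WT, 0.987, 1.04 and 0.829 in KD mH2A1.1 and 0.275, 0.104 and 0.134 in KD mH2A1.2, with at most 42 counts in a library. All KD mH2A1.1 samples lay above all others, a rise of 1.99 ± 0.40 on the log2 scale against WT (adjusted p = 0.0152) and 2.46 ± 0.42 between the knockdowns (adjusted p = 0.00334). As Bmp4 fell in the same samples, the ratio of Bmp4 to Nog CPM was 15.8, 103 and 38.4 in WT, 0.6, 1.5 and 1.75 in KD mH2A1.1, and 64.3, 220.0 and 125 in KD mH2A1.2, a description for which no test was run. Nog had only 13, 5 and 9 counts in WT and 10, 4 and 5 in KD mH2A1.2. The size of the ratio in these 2 groups is therefore poorly known. Grem1 and Chrd, other BMP antagonists, passed in no comparison. Chrd had means of 35.8 ± 3.23, 36.2 ± 3.71 and 37.0 ± 8.36 CPM (SD, n = 3) in WT, KD mH2A1.1 and KD mH2A1.2. Grem1 ranged widely within a group, from 13.9 to 68.6 CPM in KD mH2A1.2.

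The ID genes, targets of BMP signals, were lower in KD mH2A1.1 than in KD mH2A1.2 for 2 of the 3 tested. Id3 had 8.27, 18.1 and 12.4 CPM in WT, 10.4, 5.13 and 8.26 in KD mH2A1.1 and 15.3, 18.1 and 16.3 in KD mH2A1.2. The knockdowns did not overlap (log2 fold change -1.06 ± 0.29, adjusted p = 0.0273), whereas WT spanned much of the range of both. Id1, the ID gene with the highest level per length, had 5.88, 8.84 and 5.98 CPM in WT, 8.51, 5.38 and 6.19 in KD mH2A1.1 and 12.1, 10.4 and 9.61 in KD mH2A1.2. Its difference between the knockdowns, -0.67 ± 0.21, passed narrowly (adjusted p = 0.0463) and was lost without WT replicate 1, WT replicate 3, KD mH2A1.1 replicates 2 or 3, or any 1 of the KD mH2A1.2 samples. Id2, with 3.30 to 14.0 CPM within KD mH2A1.2, passed in no comparison.

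**Figure D3:**
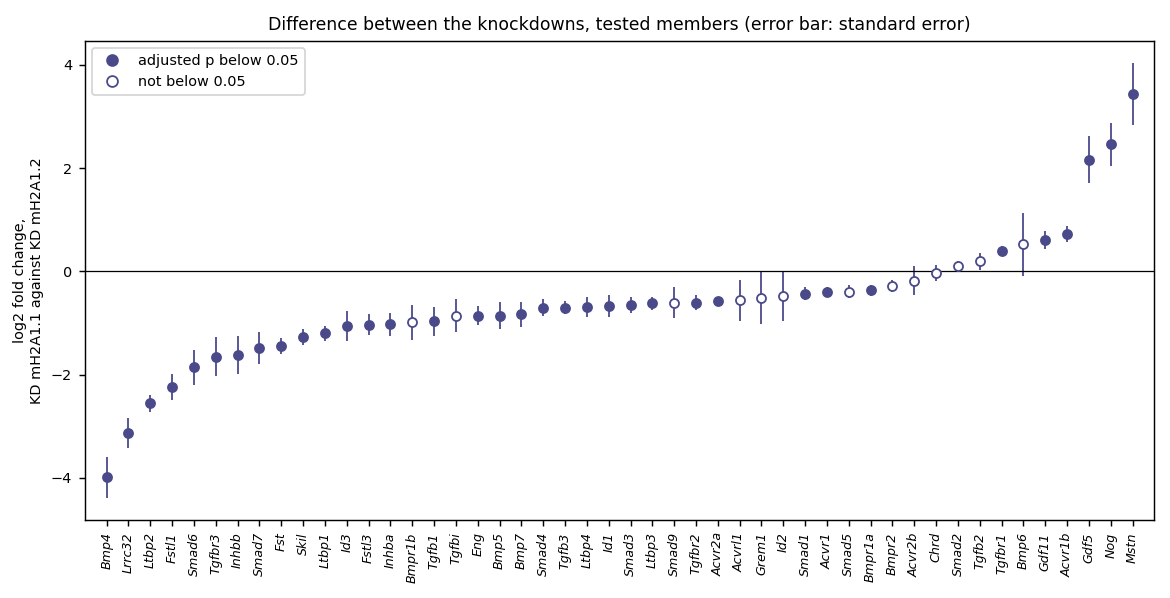
Log2 fold change of KD mH2A1.1 against KD mH2A1.2 for the 48 tested members in order of size, with the standard error as a bar and filled points where the adjusted p was below 0.05. The order runs from Bmp4 at -3.99 to Mstn at 3.44, with 29 filled points below 0 and 6 above.

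The 6 members higher in KD mH2A1.1 than in KD mH2A1.2 were Tgfbr1, Acvr1b, Gdf5, Gdf11, Mstn and Nog. By role, the members that differed between the knockdowns were 2 of 4 among the TGF-beta ligands with Tgfbi, 5 of 5 latency proteins, 8 of 12 receptors, 6 of 9 SMADs with Skil, 8 of 9 tested BMP, GDF and activin ligands, 4 of 6 antagonists and 2 of 3 tested ID genes, where 22.5% of all tested genes differed. In all, 36 members passed in at least 1 comparison of the fit without a replicate block, and 12 tested members in none.

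**Figure D4:**
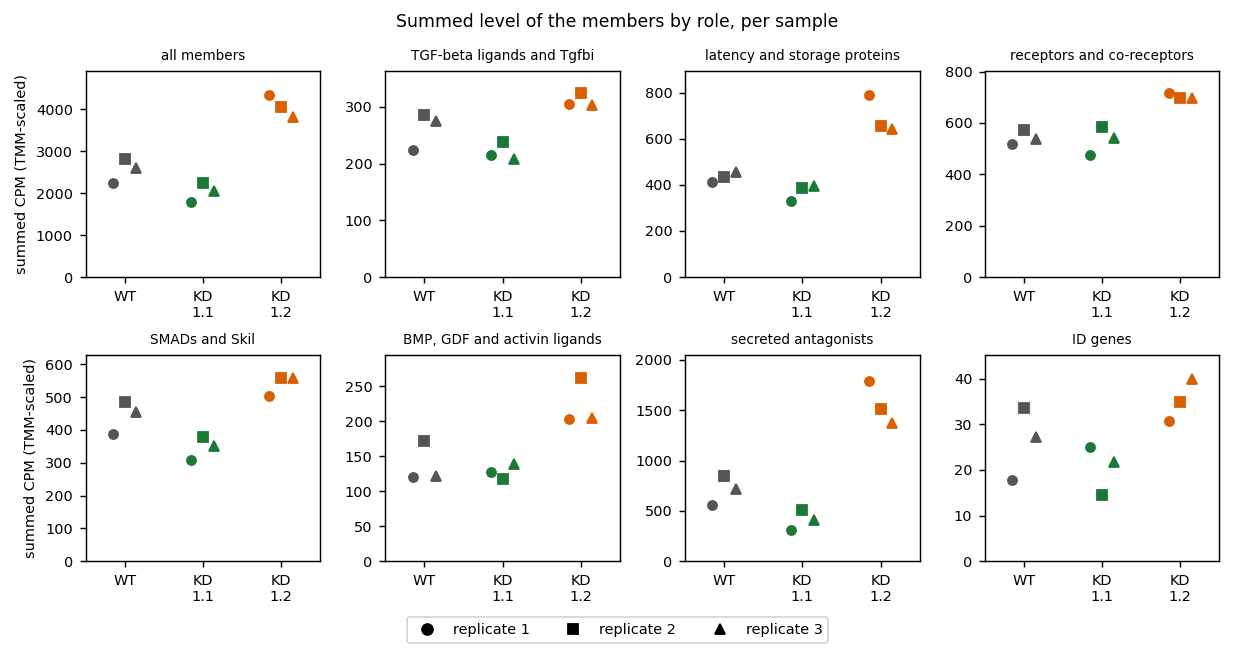
Summed level in every sample of all members and of each role, in TMM-scaled CPM from 0, with colours for the groups and marker shape for the replicate. The summed antagonists, mostly Fstl1, reach 561 to 842 in WT, 310.0 to 513 in KD mH2A1.1 and 1377 to 1792 in KD mH2A1.2, and the receptors of KD mH2A1.1 overlap those of WT.

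Summed by role, KD mH2A1.2 lay above all other samples in every role but the ID genes. The latency proteins summed to 412.5 to 456 CPM in WT, 329.9 to 396 in KD mH2A1.1 and 644 to 791 in KD mH2A1.2. The receptors summed to 519.7 to 573, 476 to 584 and 698 to 718 CPM in the same order. KD mH2A1.1 lay below WT without overlap for the latency proteins and overlapped it for the receptors. Within groups the members also moved together, since WT replicate 1 was the lowest of its group for 29 of the 48 tested members and KD mH2A1.1 replicate 1 for 30, while WT replicate 2 was the highest for 26 and KD mH2A1.1 replicate 2 for 29.

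Promoters are shown for 4 members that differed between the knockdowns and whose sequences were among those matched, Bmp4 and Ltbp2 for the size of their change, and Smad6 and Id3 as inhibitor and target of BMP signals. The sequences are RefSeq's on GRCm38.p6, 250 bases before to 50 after the start, read 5′ to 3′ on the gene's strand. They lie at chr14:46390620-46390919 (minus strand) for Bmp4, chr12:84876442-84876741 (minus) for Ltbp2, chr9:64022010-64022309 (minus) for Smad6 and chr4:136143572-136143871 (plus) for Id3. Capitals mark the letters CAGAC, a form of the SMAD-binding element, on either strand. They also mark GGCGCC, known from SMAD sites of BMP-responsive genes, and GTCTAGAC, a palindrome of SMAD letters. The latter pair read the same on both strands, and neither contains CAGAC. Shorter letters such as AGAC were not searched.
Bmp4: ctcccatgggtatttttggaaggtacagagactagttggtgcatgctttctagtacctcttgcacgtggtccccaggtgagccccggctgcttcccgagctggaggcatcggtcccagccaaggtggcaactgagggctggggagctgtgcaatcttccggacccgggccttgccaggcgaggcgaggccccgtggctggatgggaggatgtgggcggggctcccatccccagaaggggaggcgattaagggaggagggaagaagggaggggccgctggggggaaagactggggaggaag
Ltbp2: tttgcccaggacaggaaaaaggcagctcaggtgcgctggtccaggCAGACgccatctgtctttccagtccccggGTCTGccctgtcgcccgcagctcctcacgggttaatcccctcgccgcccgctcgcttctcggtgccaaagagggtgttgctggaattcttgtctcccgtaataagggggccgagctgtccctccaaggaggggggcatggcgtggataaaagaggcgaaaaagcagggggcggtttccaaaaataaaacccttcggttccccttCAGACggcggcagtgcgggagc
Smad6: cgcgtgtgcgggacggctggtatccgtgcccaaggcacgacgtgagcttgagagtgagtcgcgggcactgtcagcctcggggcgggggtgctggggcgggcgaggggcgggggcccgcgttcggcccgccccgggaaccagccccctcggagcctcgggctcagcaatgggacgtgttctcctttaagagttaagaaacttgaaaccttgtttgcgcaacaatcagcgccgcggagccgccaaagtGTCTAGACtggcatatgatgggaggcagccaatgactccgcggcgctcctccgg
Id3: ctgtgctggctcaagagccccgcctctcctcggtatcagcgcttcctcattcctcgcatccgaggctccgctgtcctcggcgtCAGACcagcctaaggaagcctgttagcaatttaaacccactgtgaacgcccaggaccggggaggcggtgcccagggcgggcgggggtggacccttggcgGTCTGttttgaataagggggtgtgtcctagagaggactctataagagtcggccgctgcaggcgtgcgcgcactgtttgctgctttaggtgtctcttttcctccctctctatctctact
The Ltbp2 window held CAGAC 3 times and the Id3 window 2 times. The Smad6 window held GTCTAGAC across the start, from 4 bases before it, and the Bmp4 window held none of the 3. Of 44 member promoters of 36 genes, 47.7% held CAGAC, against 49.6% of all 32851 promoters, and among the 23 of members lower in KD mH2A1.1 than in KD mH2A1.2 the share was 43.5%. GGCGCC was in 31.8% of member promoters, 13.0% of those of the lower members and 11.9% of all. GTCTAGAC was in 70 promoters of all (0.213%), with Smad6 as the only member. These are matches of letters, without a measurement of binding, and members without a promoter entry were not searched.

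A list of 56 other genes of the same pathways, none of them a member, was counted in the same way. Of 46 tested, 7 passed in KD mH2A1.1 against WT (3 higher, 4 lower), which is 15.2% beside 11.1% of all tested genes. In KD mH2A1.2, 5 passed (all higher), 10.9% beside 2.35%, and between the knockdowns 20 passed (5 higher, 15 lower), 43.5% beside 22.5%. The count of 7 became 2 without WT replicate 3 or KD mH2A1.1 replicate 1, and 3 without WT replicate 2 or KD mH2A1.1 replicate 3. The share of all tested genes that passed in those fits was 2.99% to 4.02%. The count of 5 became 1 without KD mH2A1.2 replicates 1 or 2, 2 without WT replicates 1 or 3 or KD mH2A1.1 replicate 3, and 3 without WT replicate 2, and it was 11 with the replicate block. Of all tested genes, 0.367% to 1.32% passed in those fits without a sample, and 5.14% with the block. Thbs1, thrombospondin, which releases TGF-beta from latency, fell in KD mH2A1.1 (log2 fold change -1.08 ± 0.19, adjusted p = 0.00876) and rose in KD mH2A1.2 (0.93 ± 0.19, adjusted p = 0.0347). Itgb5, an integrin subunit that can bind latent TGF-beta, did the same, at -0.57 ± 0.13 (adjusted p = 0.0268) and 0.72 ± 0.13 (adjusted p = 0.028). Bmper, a modulator of BMPs, rose by 1.43 ± 0.17 in KD mH2A1.2 (adjusted p = 0.00754), and Bgn, a matrix proteoglycan that binds TGF-beta, fell by 1.81 in KD mH2A1.1 (SE 0.32, adjusted p = 0.00947). Pmepa1, an intracellular regulator, rose by 1.08 ± 0.18 in KD mH2A1.2 (adjusted p = 0.0191). Its value in KD mH2A1.1 was 0.04 ± 0.18 (adjusted p = 0.894). By role, those that differed between the knockdowns were 2 of 5 tested ligands, 1 of 5 receptors, 3 of 7 activators of latent ligand, 3 of 7 antagonists, 3 of 11 intracellular regulators and 8 of 11 targets.

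Of 11 tested genes known as direct targets of these pathways, 8 differed between the knockdowns (72.7%, beside 22.5% of all tested genes), 7 of them lower in KD mH2A1.1. Over all tested genes, 10.5% were lower. Ccn2, a matrix protein induced by TGF-beta, had means of 78.1 ± 45.7 CPM in WT, 32.1 ± 13.8 in KD mH2A1.1 and 230.5 ± 31.3 in KD mH2A1.2 (SD, n = 3), and differed by -2.84 ± 0.47 between the knockdowns (adjusted p = 0.00291). Atoh8, Junb, Klf10, Ccn1 and Snai1 were also lower in KD mH2A1.1. Hey1, a target of BMP and of Notch signals, was the one higher in KD mH2A1.1, by 1.46 ± 0.33 against WT (adjusted p = 0.0229) and 2.55 ± 0.35 between the knockdowns (adjusted p = 0.00111). Against WT, Snai1 fell in KD mH2A1.1 (-0.96 ± 0.27, adjusted p = 0.0478) and in KD mH2A1.2 edgeR called 0 of the targets, with 6 at an unadjusted p below 0.05.

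Markers of cell types the dish could hold also differed among the groups, where 11.1%, 2.35% and 22.5% of all tested genes passed in KD mH2A1.1 against WT, in KD mH2A1.2 against WT and between the knockdowns. Of 12 myotube markers, 4 passed in KD mH2A1.1 against WT (2 higher, 2 lower), 2 in KD mH2A1.2 (both lower) and 6 between the knockdowns (4 higher and 2 lower in KD mH2A1.1), and their summed level was 18360 to 27960 CPM in WT, 17230 to 21930 in KD mH2A1.1 and 15730 to 20290 in KD mH2A1.2. Of 8 markers of proliferating cells, 1 passed in KD mH2A1.1 against WT and 7 between the knockdowns, all higher in KD mH2A1.1, with sums of 365 to 524, 472 to 981 and 284.5 to 396.5 CPM in the same order. Of 8 markers of unfused or reserve myoblasts, edgeR called 0 in KD mH2A1.1 against WT (3 at an unadjusted p below 0.05), 1 in KD mH2A1.2 (Myf5, lower) and 6 between the knockdowns (4 higher, 2 lower), with sums of 2067 to 3318, 3237 to 3955 and 1681 to 2984 CPM. The fibroblast list, of which 7 of 8 genes were tested and Tcf21 was at or under 3 counts, summed to 2460 to 3547, 2536 to 2810 and 3834 to 4410 CPM, with 2 genes lower in KD mH2A1.1 than in WT (Postn and Lum). In KD mH2A1.2 edgeR called 0 of the 7 against WT, with 3 at an unadjusted p below 0.05, and between the knockdowns it called 3, Ly6a higher and Postn and Lum lower in KD mH2A1.1. Of 8 osteoblast markers, Ibsp and Dlx5 had at most 3 counts in every library, and of 5 tested, Runx2 fell in KD mH2A1.1 against WT while Runx2 was lower and Dmp1 higher in KD mH2A1.1 than in KD mH2A1.2 (sums 285 to 568, 382 to 615 and 399 to 769 CPM). Of 6 adipocyte markers, Adipoq, Cidec and Lep had at most 3 counts in every library, and edgeR called 0 of the 3 tested in any comparison, with 1 at an unadjusted p below 0.05 in each (sums 8.83 to 15.4, 13.0 to 14.2 and 5.61 to 10.6 CPM). The 4 endothelial markers summed to at most 2.99 CPM and the 4 leukocyte markers to at most 12.6 CPM in a library, and of these Tek and Cd68 were higher in KD mH2A1.1 than in WT. Single genes held much of some sums, which therefore do not measure amounts of a cell type. In the same order of groups, Itga7 held 1466 to 2522, 2358 to 2836 and 987 to 1925 CPM of the reserve myoblast sums. Acta2, which passed in no comparison, held 1522 to 2599, 1587 to 1925 and 2247 to 3015 CPM of the fibroblast sums. Runx2 held only 23.5 to 74.1 CPM of the osteoblast sums, and most of the rest was Spp1. The part of the marker changes in the differences among the pathway genes was not tested.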

How the data were processed

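RNA of C2C12 cells at day 4 of differentiation was sequenced as single reads of 50 bp in 9 libraries, 3 per group. The deposited table holds estimated counts per gene, made by the authors with Salmon on GRCm38 (the Salmon tool is also named in the submitters' processing notes), as whole numbers and without normalization. The annotation release is not given in the sources used here, and GENCODE M21 supplied gene names, positions and exon lengths (52762 of 52780 genes matched). Ccn2 and Ccn1 were matched through RefSeq's older symbols. A table of normalized values was not used here. Groups and replicate numbers came from the sample labels. The study describes independent biological replicates, but the labels do not say what was separate, so p-values measure the spread between these samples.

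The members and lists were chosen with earlier results of these data known. Differences were tested in R 4.3.3 with the quasi-likelihood test (legacy form) of edgeR 4.0.16, TMM scaling, filterByExpr (19545 genes kept) and Benjamini-Hochberg adjustment over all tested genes, in a model of all 9 samples, and called at an adjusted p below 0.05. Every adjusted p in the report is from this fit unless a block is named, a value after ± beside a log2 fold change is its standard error, and CPM are TMM-scaled. Values per sample were given for members called in any comparison and for the highest per length of each role. The test was checked on simulated data. Alternatives were DESeq2 1.42.0, limma 3.58.1 (voom), other scaling, filters and thresholds, a replicate block, and each sample left out. Deviations from group means of same-numbered WT and KD mH2A1.2 samples correlated at r of 0.331, 0.291 and 0.196 over genes, all above 0.1, so these numbers were taken to pair the samples. The same r was 0.0873, 0.0841 and 0.0975 for WT and KD mH2A1.1, and 0.0917, 0.102 and 0.116 between the knockdowns. As not all were above 0.1, these were not taken as paired. Each was still higher than every r of differently numbered samples of the same groups, so a pairing of all 3 groups remains possible. The main fit held no block for any comparison, and the block of the alternative fit joined same-numbered samples of all 3 groups. Totals of 36924252 to 42223108 counts and 3 replicates limit the precision. The reads carry no molecular identifiers, so the 3-count floor speaks for counting error alone. Promoters are RefSeq's on GRCm38.p6, with entries for 36 of the 51 members. Figures were drawn with matplotlib 3.10.9 in Python 3.11.15. Among the genes known as direct targets, 1 is included in the counts and its own values are not reported here.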

Additional observations from a re-analysis of the deposited data

How the results depend on the processing

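The direction of every called member held in each alternative run, and with the replicate block no call among the members or the other pathway genes was lost; the calls of the marker lists and H2afy were not compared under it. In KD mH2A1.1 against WT, 11 members became 17 with DESeq2, 21 with the replicate block and 1 (Bmp4) at the stricter threshold. That threshold was an adjusted p below 0.01 and a log2 change of 0.8 or more in size. The count ranged from 3 to 14 as samples were left out. Of all tested genes, 11.1% passed in the main fit, 8.95% with DESeq2, 20.8% with the block and 1.8% at the stricter threshold. Their share ranged from 2.99% to 14.6% as samples were left out. In KD mH2A1.2 against WT, 9 became 15 with DESeq2, 14 with the replicate block and 5 with the contrast's own groups alone. The count was 2 at the stricter threshold, and ranged from 2 to 11. Of all tested genes, 2.35% passed in the main fit, 2.93% with DESeq2 and 5.14% with the block. The share was 1.75% with those groups alone, 0.179% at the stricter threshold, and 0.367% to 2.72% as samples were left out. Between the knockdowns, 35 became 15 at the stricter threshold, 39 with the block (within 1.5 times), and ranged from 22 to 35. Of all tested genes, 22.5% passed there in the main fit, 6.39% at the stricter threshold and 29.0% with the block. The share ranged from 11.2% to 23.0% as samples were left out. For the other pathway genes, 7 in KD mH2A1.1 became 11 with DESeq2, 16 with the replicate block and 2 at the stricter threshold, ranging from 2 to 9; 5 in KD mH2A1.2 became 11 with DESeq2, 9 without a filter on low counts, 11 with the block and 1 at the stricter threshold, ranging from 1 to 6; and 20 between the knockdowns became 12 at the stricter threshold, ranging from 15 to 22. The shares of all tested genes given above belong to the same fits. Without a filter on low counts, 1.81% of them passed in KD mH2A1.2 against WT. The cause of these shifts was not tested. The correlations of same-numbered WT and KD mH2A1.1 samples stayed under 0.1, so these were not taken as paired, although each sample correlated best with its own number, a hint from the data and not from the design. With the block, Smad4 (adjusted p = 0.00581), Fstl3 (0.00781), Tgfbr3 (0.0158), Inhbb (0.0231), Ltbp2 (0.0287), Smad5 (0.0352), Tgfb1 (0.0433), Smad7 (0.0462) and Tgfbi (0.0468) passed as lower and Gdf11 (0.0146) as higher in KD mH2A1.1 than in WT, and Smad5 (0.0055), Tgfbi (0.0286), Bmpr2 (0.0336) and Bmpr1b (0.0352) as lower in KD mH2A1.1 than in KD mH2A1.2.

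Signs turned only in values that were not called. In KD mH2A1.1 against WT, Lrrc32 was 0.013 with limma-voom, and Acvr1b was -0.0018 with the replicate block and -0.0055 with limma-voom. As samples were left out, the log2 fold changes against WT ranged over 0 in KD mH2A1.1 for Ltbp3 (-0.10 to 0.13), Lrrc32 (-0.29 to 0.17), Acvr1b (-0.071 to 0.15), Mstn (-0.10 to 0.19), Inhba (-0.27 to 0.15) and Id1 (-0.25 to 0.17), and in KD mH2A1.2 for Tgfb1 (-0.0065 to 0.58), Tgfbr1 (-0.028 to 0.065) and Gdf11 (-0.28 to 0.0011). Low counts kept Bmp2, Gdf6 and Id4 out of the test, while Mstn, Nog, Bmp6, Acvrl1 and Smad9 had at most 50 in a library.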
